A study of Penicillium oxalicum with 15 samples.

Results

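POX05587 and POX04786 are 2 of the 9512 gene identifiers in an RNA sequencing series on the filamentous fungus Penicillium oxalicum, and both were chosen by identifier as the cellobiohydrolase genes of a panel of 13 plant-biomass-degrading enzyme genes. The cellobiohydrolase name comes from outside the deposited files, which hold identifiers without product names, so it could not be checked against a sequence or an annotation here. Both genes were among the most abundant transcripts of strain EU2101 on carbon source WR and on WB plus AV. They stood lower in EU2101 on WB, and lower again in strains MuPOX03016 and MuKu70 on WR.

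Cellobiohydrolases are secreted enzymes that move along a cellulose chain from one of its ends and release the disaccharide cellobiose. One family works from the reducing end of the chain and another from the non-reducing end, and cellulose-degrading fungi commonly secrete both kinds. Endoglucanases open new chain ends inside the polymer and beta-glucosidases split the cellobiose to glucose. Fungi generally transcribe such genes together when cellulose is present and repress them when easier sugars are at hand.

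The mycelium came from solid-state cultures, in which a fungus grows on moist particles with no free liquid, kept static for 5 days at 28 °C, with 20 mL of mineral salt solution added to each 10 g of carbon source. The 5 groups of 3 libraries were strain MuPOX03016 on WR, strain MuKu70 on WR, strain EU2101 on WR, EU2101 on WB plus AV and EU2101 on WB. The labels leave these abbreviations unexplained, write WA for AV in the growth field, and title the EU2101 cultures on WR as WB_RS. Ku70 is a DNA end-joining protein whose loss makes gene targeting easier in fungi, and POX03016 is another identifier of this fungus. How the mutants were made, what strain each came from and whether replicates were separate cultures are not given, so each p-value reflects only how far these samples scatter, and that scatter may be technical.

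Summed estimated counts ran from 6609605 to 7335888 per library in the 6 MuPOX03016 and MuKu70 libraries and from 1782848 to 3414915 in the 9 EU2101 libraries. Replicate 1 of WB stood apart: across genes it correlated at 0.852 and 0.851 with the other WB libraries but at 0.912 to 0.937 with the WB plus AV libraries and at 0.888 to 0.892 with the WR libraries. Whether its label is right was not tested, and every WB mean and comparison holds this library unless stated otherwise. POX03016, the check on the mutant label, had 17.9 to 19.9 FPKM in MuPOX03016 and 87.4 to 139 FPKM in MuKu70, and edgeR gave it -2.33 on the log2 scale (SE 0.19, adjusted p = 0.0012). FPKM is the fragment count scaled to gene length and to library size, so that genes of different length can be compared.

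Each member was read deeply in every library. POX05587 had 3859 to 44214 counts and POX04786 5449 to 70954 counts, and all of these were whole numbers in all 15 libraries, whereas 13.4 to 14.2% of the listed counts in the MuPOX03016 and MuKu70 libraries and 0.173 to 0.313% in the EU2101 libraries were fractional. The length behind the FPKM values, taken as count over FPKM with the library's summed counts as the base, was 1552 ± 1.79 bp for POX05587 and 1332 ± 1.73 bp for POX04786 in EU2101 on WR (SD, n = 3).

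On WR, POX05587 had 1021, 868 and 520 FPKM in replicates 1, 2 and 3 of MuPOX03016, 484, 523 and 388 FPKM in those of MuKu70 and 8212, 6273 and 8453 FPKM in those of EU2101. In EU2101 it had 6145, 8307 and 5793 FPKM on WB plus AV and 1595, 2403 and 1910 FPKM on WB. The highest library, EU2101 on WR replicate 3, held 21.8 times the level of the lowest, MuKu70 replicate 3. The EU2101 libraries on WR and on WB plus AV overlapped each other and lay above every library of the other 3 groups. Of all tested genes, 14.8% lay without overlap above WB on WR and 5.79% did so on WB plus AV. In MuKu70 37.8% lay without overlap below EU2101 on WR. The share of genes with the full order seen for POX05587 was not counted. Fewer hyphae expressing a gene and less RNA per hypha cannot be told apart in such bulk samples.

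POX04786 had 2078, 2335 and 1158 FPKM in replicates 1, 2 and 3 of MuPOX03016, 918, 970 and 649 FPKM in those of MuKu70 and 15610, 11608 and 13503 FPKM in those of EU2101 on WR. On WB plus AV it had 12231, 12792 and 7687 FPKM, and on WB 4123, 2621 and 1817 FPKM. Its highest and lowest libraries differed 24.1-fold. It was the more abundant of the pair, per length, in 14 of the 15 libraries; the exception was replicate 3 of WB.

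**Figure D1:**
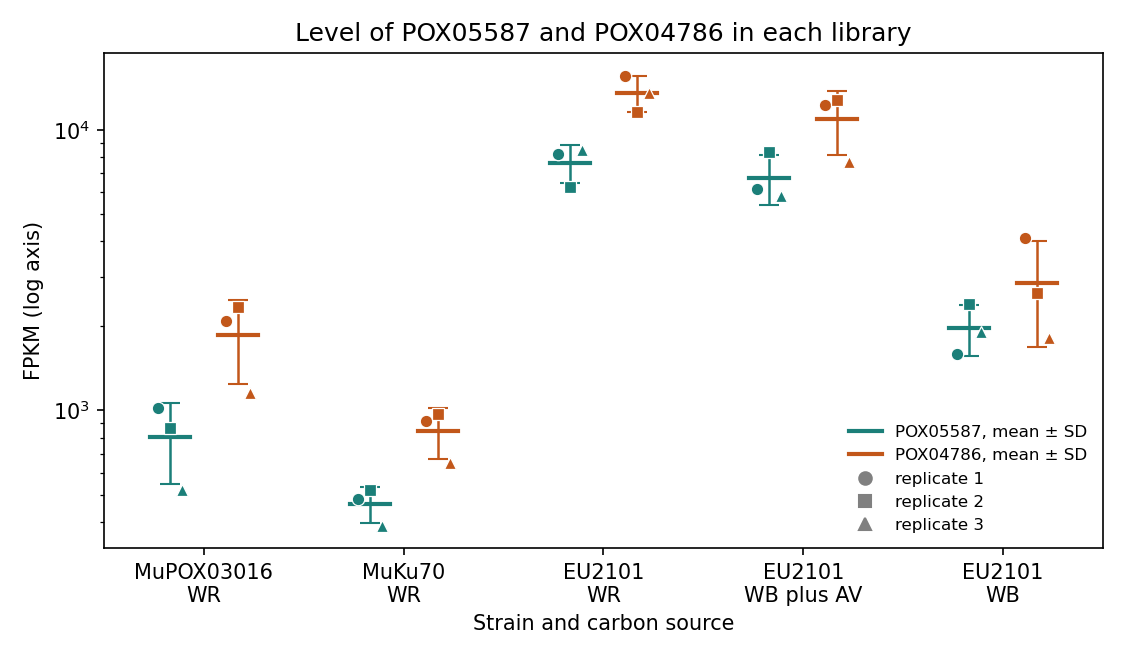
FPKM of POX05587 (green) and POX04786 (orange) in each of the 15 libraries on a log axis, with the mean and SD of each group of 3; symbols mark the replicate number. Both genes lie highest in EU2101 on WR and on WB plus AV and lowest in MuKu70.

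POX05587 averaged 803 ± 257 FPKM in MuPOX03016, 465 ± 69.1 in MuKu70, 7646 ± 1195 in EU2101 on WR, 6748 ± 1361 on WB plus AV and 1969 ± 407 on WB (SD, n = 3). POX04786 averaged 1857 ± 619, 846 ± 172, 13574 ± 2002, 10903 ± 2799 and 2854 ± 1171 FPKM in the same groups. Both genes thus had the same order of means, with EU2101 on WR highest, then WB plus AV, WB, MuPOX03016 and MuKu70. The difference between WR and WB plus AV was within the spread of the libraries for either gene. MuPOX03016 and WB, which differ in both strain and carbon source and were not tested against each other, overlapped for POX04786 and did not overlap for POX05587. The share of all genes that lay apart between these groups was not counted, so this is no trait particular to POX05587.

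The ranks show how far up the transcriptome the pair stood. POX04786 was the 2nd or 3rd most abundant of the 8790 to 8997 listed genes in each EU2101 library on WR and on WB plus AV, and POX05587 was the 4th or 5th. On WB the ranks were 10 to 41 for POX04786 and 29 to 57 for POX05587. In MuPOX03016 they were 33 to 107 for POX04786 and 116 to 283 for POX05587, and in MuKu70 131 to 226 for POX04786 and 270 to 347 for POX05587. Even in MuKu70 both genes were among the 347 highest of at least 8662 listed genes.

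As a share of the FPKM sum, the pair together took 0.322 ± 0.104% in MuPOX03016, 0.158 ± 0.032% in MuKu70, 2.36 ± 0.332% in EU2101 on WR, 2.06 ± 0.363% on WB plus AV and 0.545 ± 0.0795% on WB (SD, n = 3). POX04786 alone took 1.51 ± 0.218% on WR and POX05587 0.85 ± 0.132%. As a share of the summed counts, in which the longer gene weighs more, POX05587 took 1.19 ± 0.184% on WR.

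Within the panel of 13, which was recalled from published quantitative PCR work on this species and whose functions were not checked here, the pair held a smaller part in the mutants. It took 16.5 ± 1.45% of the panel's FPKM in MuPOX03016 and 17.4 ± 0.55% in MuKu70, against 33.8 ± 2.01% in EU2101 on WR, with 39.0 ± 5.12% on WB plus AV and 30.6 ± 3.84% on WB. POX04786 ranked 4th of the 13 in MuPOX03016, 5th in MuKu70 and 1st in EU2101 on WR, and POX05587 ranked 9th, 9th and 3rd. Part of the panel rests on other gene lengths in the 2 sets of libraries, for example POX00063 with 1567 ± 11.4 bp in MuPOX03016 and 1169 ± 1.7 bp in EU2101 on WR, and the part of this in the panel shares was not tested.

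**Figure D2:**
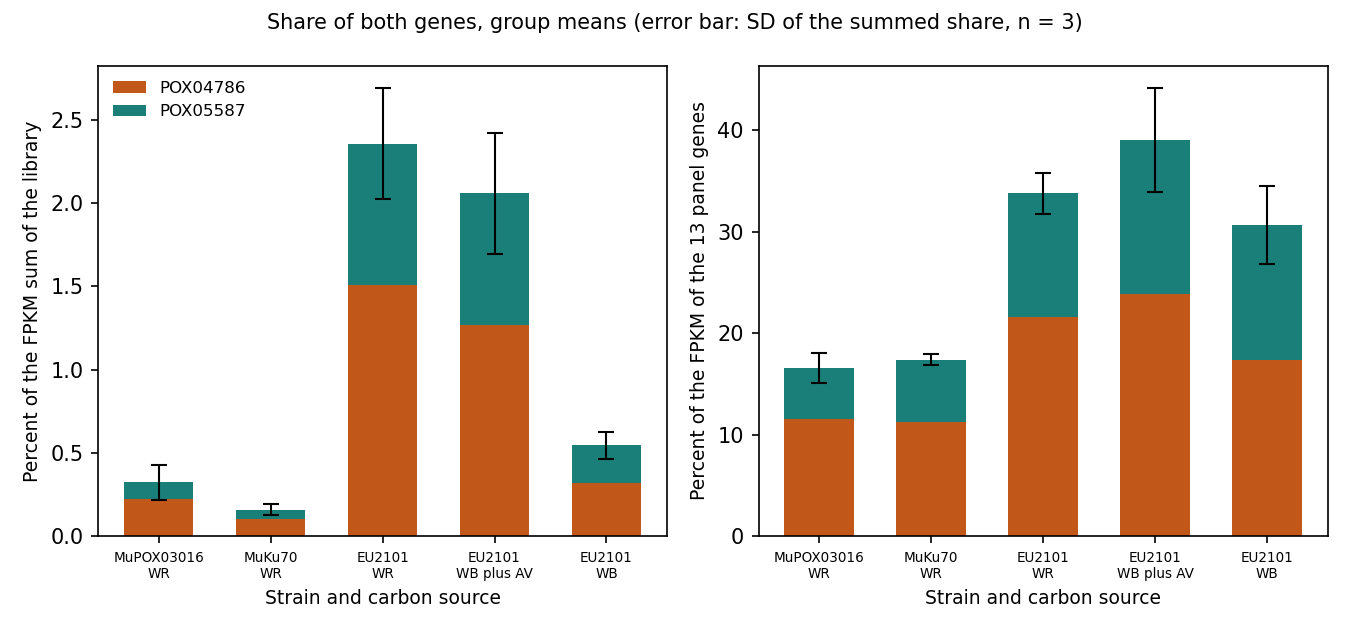
Stacked group means of the share of POX04786 (orange) and POX05587 (green) in the FPKM sum of the library (left, percent) and in the FPKM of the 13 panel genes (right, percent), with the SD of the summed share over 3 libraries. On the left the MuKu70 bar reaches 0.158% and the EU2101 WR bar 2.36%.

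The title of the series asks about inducing carbon sources, and WR against WB in EU2101 gave a change in both genes. POX05587 rose 3.84-fold (log2 1.94, SE 0.36, adjusted p = 0.0079) and POX04786 4.94-fold (log2 2.30, SE 0.38, adjusted p = 0.00478), both in edgeR's quasi-likelihood test over 8079 genes. In that comparison 8.66% of the tested genes passed in the upward direction, a share that was 18.7% without WB replicate 1 and 4.36 to 4.96% without any other single library of the pair. By size of log2 fold change POX04786 stood at position 201 and POX05587 at position 287. For both members all 3 WR libraries lay above all 3 WB libraries, a separation that 14.8% of the genes showed. Without the outlying WB replicate 1 the log2 fold changes were 1.73 (adjusted p = 0.00312) for POX05587 and 2.51 (adjusted p = 0.000917) for POX04786 in edgeR.

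WB plus AV against WB uses the same WB libraries, so its values are not independent of those above. POX04786 rose 3.83-fold (log2 1.94, SE 0.38, adjusted p = 0.0433 in edgeR), and POX05587 was 3.29-fold higher in the fit (log2 1.72, SE 0.36, adjusted p = 0.0544), just outside the threshold of 0.05. Only 0.681% of the tested genes passed upward here, and the WB plus AV libraries lay above the WB libraries without overlap for both members and for 5.79% of the genes. Same-numbered libraries deviated together across genes, but differently numbered ones were not compared, so a pairing by number is not established. Each of the 3 same-numbered pairs was higher on WB plus AV, by 3.03- to 3.85-fold for POX05587 and by 2.97- to 4.88-fold for POX04786. With the replicate number as a block both genes rose (adjusted p = 0.0262 for POX05587 and 0.016 for POX04786 in edgeR), in a fit where 2.95% of all tested genes passed upward.

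Those calls rested on the choice of libraries. Without WB replicate 1 the adjusted p in edgeR was 0.00978 for POX05587 (log2 fold change 1.503) and 0.00359 for POX04786 (2.15), and 11.1% of all tested genes passed upward. Leaving out WB replicate 2 or 3 or any WB plus AV library ended the call of POX04786, with adjusted p between 0.0825 and 0.198 in edgeR, while its log2 fold change stayed between 1.72 and 2.15. In those fits 0.0367 to 0.477% of all tested genes passed upward.

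Between WR and WB plus AV, 5.09% of the tested genes passed in either direction, and neither cellobiohydrolase gene did. That share was 1.91 to 4.84% with any 1 library of the pair left out. The log2 fold change was 0.23 for POX05587 (SE 0.35, adjusted p = 0.793) and 0.37 for POX04786 (SE 0.36, adjusted p = 0.648) in edgeR, and the libraries overlapped. In 2 of the 3 same-numbered pairs both genes were higher on WR, and in the pair of replicate 2 both were lower.

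In MuPOX03016 against MuKu70 on WR, the comparison that bears on POX03016, POX04786 was 2.42-fold higher in MuPOX03016 (log2 1.27, SE 0.30, adjusted p = 0.0262 in edgeR over 7931 genes). POX05587 was 1.91-fold higher in the fit (log2 0.93, SE 0.26, adjusted p = 0.0503), just outside the threshold. In this comparison 10.8% of the genes passed upward, and 3.31% without MuKu70 replicate 1 and 6.24 to 9.35% without any other single library. In edgeR 10 of the other 11 panel genes had a larger log2 fold change than POX05587, against 4 for POX04786. The libraries did not overlap for POX04786, as for 13% of the genes in this direction, but did for POX05587, where MuPOX03016 replicate 3 at 520 FPKM lay below MuKu70 replicate 2 at 523 FPKM. Leaving out MuPOX03016 replicate 1 or 2 or any MuKu70 library ended the call of POX04786 (adjusted p 0.0537 to 0.0944 in edgeR), and without MuPOX03016 replicate 3 both genes passed (adjusted p = 0.0162 for POX05587 and 0.014 for POX04786).

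The spread within MuPOX03016 was wide for both genes. Their coefficients of variation were 32% for POX05587 and 33.3% for POX04786 in MuPOX03016, against 14.9% and 20.4% in MuKu70. Genes with a mean of at least 100 FPKM had a median of 11.8% in MuPOX03016 and 9.61% in MuKu70. Replicate 3 was the lowest library for each gene in both strains.

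MuKu70 against EU2101 on WR gave the largest differences of the pair. In MuKu70 POX05587 was 16.7-fold lower (log2 -4.06, SE 0.25, adjusted p = 4.3e-06) and POX04786 16.4-fold lower (log2 -4.04, SE 0.28, adjusted p = 8.28e-06) in edgeR over 8287 genes. In this comparison 31.3% of the tested genes passed downward, 37.8% lay without overlap below EU2101, and by size of fall POX05587 stood at position 381 and POX04786 at position 385. Strain cannot be told apart here from the set of libraries, since MuPOX03016 and MuKu70 libraries also differ from EU2101 in depth, in the share of fractional counts and in gene lengths.

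For the pair itself the lengths differed between the 2 sets by nearly the shift that was common across genes. Across 5911 genes with enough reads the length in the MuPOX03016 and MuKu70 libraries minus that in the EU2101 libraries had a common shift of -71.4 bp. POX05587 had -73.2 bp and POX04786 -72.5 bp, within the tolerance of 20 bp that 70.4% of the genes met. Over those genes alone the log2 fold changes were -3.89 and -3.87.

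**Figure D3:**
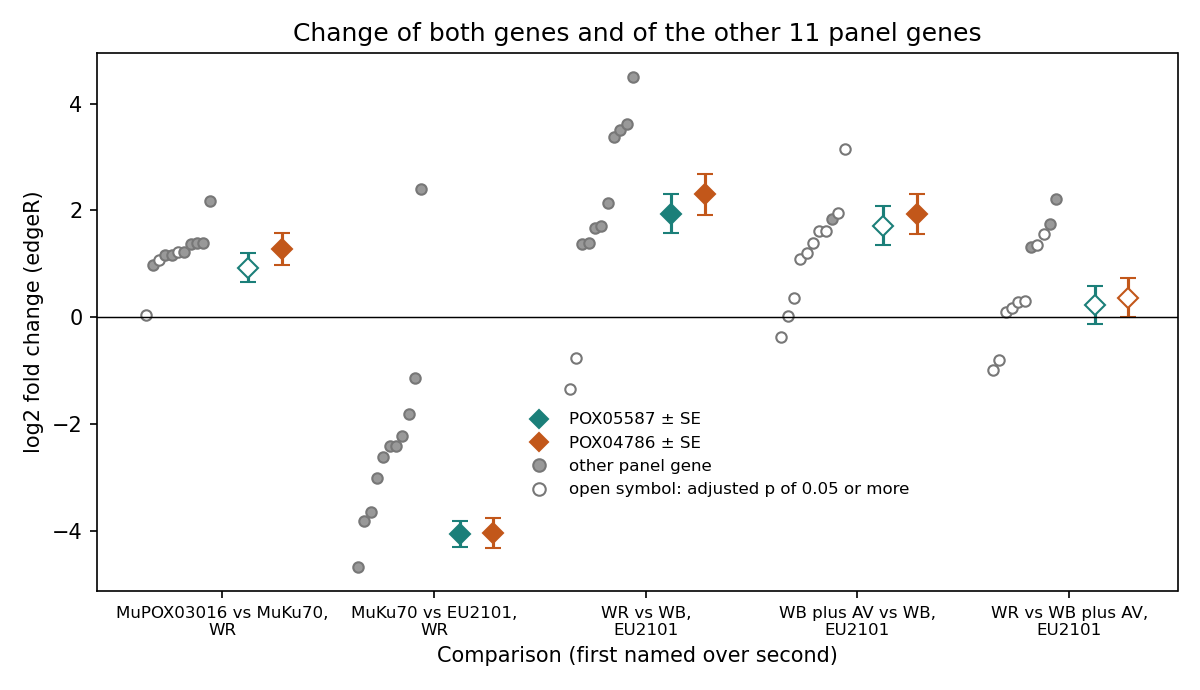
Log2 fold change (edgeR, first named group over the second) of POX05587 and POX04786 with the SE, and of the other 11 panel genes as circles, in the 5 comparisons; open symbols have an adjusted p of 0.05 or more. Both members rise on WR against WB and have their lowest values in MuKu70 against EU2101.

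The ratio of POX05587 to POX04786, which does not depend on the scaling of a library, was set side by side in each of the 15 libraries. It was 0.491, 0.372 and 0.449 in replicates 1, 2 and 3 of MuPOX03016 and 0.527, 0.539 and 0.599 in those of MuKu70. In EU2101 it was 0.526, 0.540 and 0.626 on WR, 0.502, 0.649 and 0.754 on WB plus AV, and 0.387, 0.917 and 1.05 on WB. The 3 MuPOX03016 ratios lay below all MuKu70 and all EU2101 WR ratios, and WB had both the highest ratios and one of the lowest.

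The exact 2-sided permutation test of 3 libraries against 3 cannot go below p = 0.1, so no difference in ratio could pass, and 5 comparisons were made. The mean log2 ratio was -1.20 ± 0.21 in MuPOX03016 and -0.85 ± 0.10 in MuKu70 (SD, n = 3), a difference of -0.35 (SE 0.13) with the smallest possible exact p = 0.1 and 0.5 adjusted over the 5 comparisons. MuKu70 and EU2101 on WR differed by -0.02 (SE 0.10, exact p = 0.7). That POX04786 passed the threshold in MuPOX03016 and POX05587 did not is therefore no test that their changes differ.

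On the carbon sources no difference in ratio held steady against the choice of libraries. The differences were -0.36 (SE 0.46, exact p = 0.4) for WR against WB, -0.20 (SE 0.48, exact p = 0.7) for WB plus AV against WB and -0.16 (SE 0.19, exact p = 0.6) for WR against WB plus AV. With single libraries left out they ran from -0.80 to -0.0823, from -0.648 to 0.0731 and from -0.315 to -0.0222 in that order of comparisons. WB replicate 1 had the highest POX04786 level of its group and the lowest POX05587 level. Without it the difference from WB was -0.80 for WR and -0.65 for WB plus AV (exact permutation p = 0.2 for each). That is the smallest p this 2-sided test gives for 3 libraries against 2, as it doubles the smaller tail. POX05587 and POX04786 averaged 2156 and 2219 FPKM in the WB libraries that remained.

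**Figure D4:**
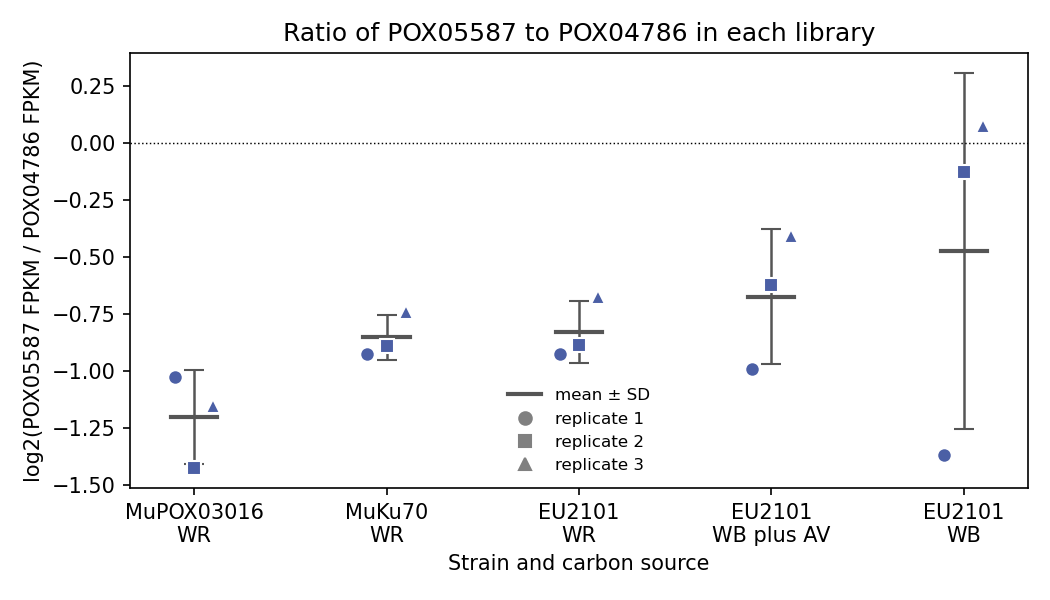
Log2 ratio of POX05587 to POX04786 FPKM in each of the 15 libraries, with the mean and SD of each group of 3; symbols mark the replicate number and the dotted line marks equal levels. The MuPOX03016 libraries lie below the MuKu70 libraries, and WB replicate 1 lies far below WB replicates 2 and 3.

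The other 11 panel genes moved as follows, described by counts, with earlier results of these data known when the list was made. In WR against WB 9 rose and none fell in edgeR, with a median log2 fold change of 1.71 against -0.03 over all tested genes, of which 16.3% were called in either direction. There 11 were called without WB replicate 1 and 6 to 9 without any other library of the pair. The share of all tested genes called was 36.3% without WB replicate 1 and 6.76 to 7.46% without any other. In WB plus AV against WB 1 rose and none fell, with a median of 1.40 against 0.01, but 8 were called without WB replicate 1 and 0 without any other library of the pair. The share of all tested genes called was 1.18% with every library, 21.7% without WB replicate 1 and 0.0489 to 0.685% without any other. In WR against WB plus AV 3 rose and none fell, with a median of 0.30 against -0.01, and 0 to 1 were called when any 1 library of the pair was left out, with 1.91 to 4.84% of all genes called in place of 5.09%. In MuPOX03016 against MuKu70 8 rose and none fell, with a median of 1.21 against -0.00 over all genes, and 3 were called without MuKu70 replicate 1, 4 without MuPOX03016 replicate 1 and 5 without MuKu70 replicate 3. All genes called came to 18.4% with every library, and to 6.78%, 12.7% and 13.5% in those fits. In MuKu70 against EU2101 10 fell and 1 rose, with a median of -2.41 against -0.01. Of all tested genes 62.8% were called there in either direction. Part of the panel rests on other gene lengths in the MuKu70 and EU2101 libraries, and the part of this in these changes was not tested.

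Of those 11, POX01166 and POX00063 had the highest mean FPKM over the 15 libraries. POX01166 averaged 2045 ± 484 FPKM in MuPOX03016, 854 ± 140 in MuKu70, 10407 ± 2281 in EU2101 on WR, 10229 ± 3172 on WB plus AV and 3367 ± 1848 on WB (SD, n = 3). POX00063 averaged 1701 ± 985, 809 ± 410, 5948 ± 1282, 2479 ± 468 and 1890 ± 235 FPKM in these groups. Unlike either cellobiohydrolase gene, POX00063 was called between WR and WB plus AV (log2 fold change 1.32, adjusted p = 0.0358 in edgeR), but that its change differed from theirs was not tested. In that comparison 5.09% of all tested genes were called, and with any 1 library of the pair left out 0 to 1 of the 11 were called.

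The genes whose pattern was most like each member were found by Pearson's r of log2(FPKM + 1) among genes with a mean of at least 10 FPKM. The libraries fall into 2 sets by strain, which share depth and gene models within a set, so r is given over all 15 libraries and within each set, as a description. The members correlated with each other at 0.970 over 15 libraries, 0.923 over the 9 EU2101 libraries and 0.968 over the 6 MuPOX03016 and MuKu70 libraries. Among 7375 genes POX04786 was the gene most like POX05587, and POX05587 was the 5th most like POX04786. Within EU2101 POX04786 was 7th for POX05587 and POX05587 31st for POX04786, and within the other set 9th and 25th.

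After POX04786, the genes most like POX05587 were POX05571 of the panel, at 0.962 over all libraries, 0.840 in EU2101 (41st there) and 0.938 in the other set (49th), and POX07745, at 0.956, 0.948 and 0.534. POX07745 lies outside the panel and varied less, from 810 ± 46.4 FPKM in MuKu70 to 1436 ± 76.5 FPKM in EU2101 on WR. Those most like POX04786 were POX01166, at 0.988, 0.966 and 0.979, and POX01896, at 0.985, 0.977 and 0.989, both of the panel. The median r of the other 11 panel genes over the 15 libraries was 0.824 with POX05587 and 0.891 with POX04786, against 0.186 and 0.180 over all genes.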

How the data were processed

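RNA sequencing of mycelium gave 15 libraries in 5 groups of 3, with groups and replicate numbers from the titles. The files list an expected count per gene, an estimated read count deposited by the authors with no scaling stated, and an FPKM value computed by the authors, per the file headers. Per the submitters' processing notes, which give no roles, the tools were RSEM 1.2.12, Bowtie2 2.1.0, DESeq2 and BWA 0.7.10-r789. Neither build nor annotation is given in the sources used. None of the 9512 identifiers matched the 9964 RefSeq genes at hand.

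Rounded expected counts went into edgeR 4.0.16 (R 4.3.3) with TMM factors and a low-count filter (filterByExpr, minimum 10). Its quasi-likelihood test was adjusted by Benjamini-Hochberg over all genes tested, with a threshold of 0.05, in 1 fit for the 9 EU2101 libraries and in 1 fit per pair of groups for the strains. Standard errors are the log2 fold change over the square root of F. On simulated counts with an assumed dispersion of 0.1, 95 to 97% of genes with a 4-fold change were recovered in each comparison. False calls made up 2 to 6.25% of calls and exceeded 5% in 3 of the 5 comparisons. The changes were planted only in genes above a minimum mean count. Every simulated gene had the same dispersion and no simulated library stood apart as WB replicate 1 did, so these shares may not hold for the real libraries. Ratios were tested with exact permutation in scipy 1.17.1, adjusted over 5 comparisons. Alternatives were DESeq2 1.42.0, median-ratio factors, no filter, limma 3.58.1 on log2(FPKM + 1) and log2(FPKM + 5), a replicate block and leaving out each library.

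No 2 replicates matched within counting error (7.96 to 56.5 for chi-square over its degrees of freedom). Same-numbered libraries deviated together in WB plus AV against WB (r 0.447 to 0.609 over 7793 genes) and in WR against WB plus AV (0.233 to 0.463). The labels do not say why, and differently numbered libraries were not compared in this way. The members and lists were chosen with earlier results of these data known. Named genes were the 2 members, POX03016, the 2 genes most like each member and the 2 most abundant other panel genes.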

Additional observations from a re-analysis of the deposited data

How the results depend on the processing

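Both members kept their direction under every alternative run, in all 5 comparisons, and their calls in WR against WB, WR against WB plus AV and MuKu70 against EU2101 did not change. In WB plus AV against WB, POX05587 passed in DESeq2 (log2 fold change 1.72), where 3.14% of genes passed upward, against 0.681%. It also passed in both limma fits (1.78), with the replicate block (1.73) and without WB replicate 1 (1.503 to 1.97 over left-out libraries). Of all tested genes 0.668% passed upward in limma with a pseudocount of 1 and 0.693% with 5. With the block 2.95% did, and without WB replicate 1 11.1%. POX04786 no longer passed at 1.98 in limma with a pseudocount of 1 (adjusted p = 0.0515) or at 1.95 when the WR libraries were left out of the fit (adjusted p = 0.193), and ranged from 1.72 to 2.15 with libraries left out. In MuPOX03016 against MuKu70, POX05587 passed in DESeq2 (0.92), where 12.5% of all tested genes passed upward. It also passed with a replicate block (0.88, adjusted p = 0.0134 in edgeR), where 14.2% passed upward, against 10.8% as reported. In the check of the pairing there, r was 0.0417, 0.310 and 0.486 for replicates 1, 2 and 3. POX05587 ranged from 0.70 to 1.18 with libraries left out, and POX04786 from 1.08 to 1.54. The block changed no other call of a member. In limma on FPKM the median of all genes in that comparison lay at -0.13, and the members at 0.74 and 1.09.

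The other panel genes called in WB plus AV against WB numbered 1, but 8 in DESeq2 and with the replicate block, 2 in limma with either pseudocount and 0 when WR was left out of the fit, and 0 to 8 with libraries left out. In WR against WB plus AV they numbered 3, but 1 in limma on log2(FPKM + 1), 5 with the replicate block and 0 to 1 with libraries left out. The share of all tested genes called there was 5.09% as reported. It was 3.71% in that limma fit, 10.8% with the block and 1.91 to 4.84% with libraries left out. In MuPOX03016 against MuKu70 they numbered 8, and 3 to 7 with libraries left out. In MuKu70 against EU2101 they numbered 11, and 6 over genes of agreeing length. That fit held only the panel genes of agreeing length, and each of these was called. Of all genes tested in it 51.9% were called, against 62.8% as reported. Genes called in all numbered 95 in WB plus AV against WB. They numbered 543 in DESeq2, 510 with the replicate block, and 119 and 124 in limma with pseudocounts of 1 and 5. They came to 3 when WR was left out, 1769 without WB replicate 1 and 4 to 56 without any other library of the pair. The difference in log2 ratio turned to 0.0731 in WB plus AV against WB without WB replicate 3 (-0.648 to 0.0731 over left-out libraries). In MuKu70 against EU2101 it turned to 0.0136 without MuKu70 replicate 1 and 0.0550 without EU2101 WR replicate 3 (-0.0780 to 0.0550). By expected count instead of FPKM, POX04786 ranked 1 and POX05587 3 in EU2101 on WR. Where not stated, the cause of a change was not tested.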
